A study of Homo sapiens with 2 samples.

Results

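The translation initiation factors are the proteins that bring the ribosome to the start codon of a messenger RNA, and their genes carry symbols beginning with EIF. Members were all array probe sets with a single annotated symbol from EIF1 to EIF6. The EIF2AK kinases, Argonaute genes, Y-linked genes and pseudogenes were left out. This gave 151 probe sets for 46 genes, out of 18239 genes with a single-symbol probe set on the array. Probe sets below the median level of both arrays were set aside, which left 129 probe sets for 43 EIF genes, out of 11272 genes in all. EIF4E1B, EIF4E3 and EIF5AL1 had dim probe sets alone, with mean levels from 2.55 to 3.69 on the log2 scale. Of the 50 factors listed for this family, EIF3C, EIF3CL, EIF4EBP3 and EIF4G3 had no probe set with a single symbol and are no members.

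The samples were cultures of GFP-SAS, a line of human tongue squamous cell carcinoma that carries green fluorescent protein. The anti-miR culture received an antisense oligonucleotide of locked and ordinary DNA nucleotides against miR-361-3p, and the control culture received a non-target oligonucleotide of the same chemistry, each at 25 nM for 24 h. Each group is 1 array of the same line, made from 10 ng of total RNA by amplification from the 3' end. No difference below can therefore be set against variation between cultures, and no p-value is given. Values are log2 expression per probe set, a gene's value is the mean over its kept probe sets, and a difference is the anti-miR array minus the control array. A gene is counted as higher or lower at a difference of 1.5-fold, 0.58 on the log2 scale. Each SD is taken over the probe sets of a gene, which can share probes, and measures technical spread within the arrays.

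The inhibited microRNA is shown because it defines the treatment, with its seed, bases 2 to 8, in capitals. It lies at chrX:85903641-85903663 on the minus strand of GRCh38.p14, and the sequence is that of RefSeq. MicroRNAs pair through the seed with messenger RNAs and lower their stability and translation. Pairing sites in the EIF messenger RNAs were not analysed here.
hsa-miR-361-3p: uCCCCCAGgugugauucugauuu

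Initiation begins when eIF2 carries the initiator tRNA, with GTP, to the small ribosomal subunit, helped by eIF1, eIF1A, eIF3 and eIF5. The complex eIF4F binds the cap of the messenger RNA, where eIF4E recognises the cap, eIF4A unwinds structure and eIF4G is the scaffold. The loaded subunit scans to the start codon, eIF5 triggers GTP hydrolysis by eIF2, and eIF5B joins the large subunit, while eIF2B recharges eIF2 with GTP. Cap binding by eIF4E and the recharging of eIF2 are the steps at which growth and stress signals act, and raised eIF4E is a known feature of head and neck carcinomas.

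Across the family, the anti-miR array had lower values for 4 of 43 EIF genes and higher values for 4, while 35 lay within 1.5-fold. Of all 11272 genes, 14.2% were lower and 8.23% were higher, beside 9.30% of EIF genes in each direction. By these counts the share of higher EIF genes was near that of the array, and the share of lower ones was below it. Each EIF share rests on only 4 genes, so the gap is not shown to be particular to the family. By gene means, the 4 lower EIF genes were all at least 2-fold lower, where the share of all genes was 6.98%, but EIF2S3 was so through 1 probe set, without which it differed by -0.84 and 3 genes were left. By gene means, 0 EIF genes were 2-fold higher, against 1.23% of all genes. The median EIF gene differed by 0.11, with quartiles of -0.18 and 0.36, and the median of all genes was 0.13, with quartiles of -0.21 and 0.33. With the median of all genes subtracted, the median EIF gene differed by -0.02, and 3 EIF genes were higher and 6 lower. With a trend on mean level subtracted, 3 were higher and 5 lower. Shares of all genes were not counted after these subtractions. Whether the share of lower EIF genes stayed below that of the array was therefore not tested. In bulk RNA such as this, fewer cells that express a gene and less of its RNA per cell cannot be told apart.

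**Figure D1:**
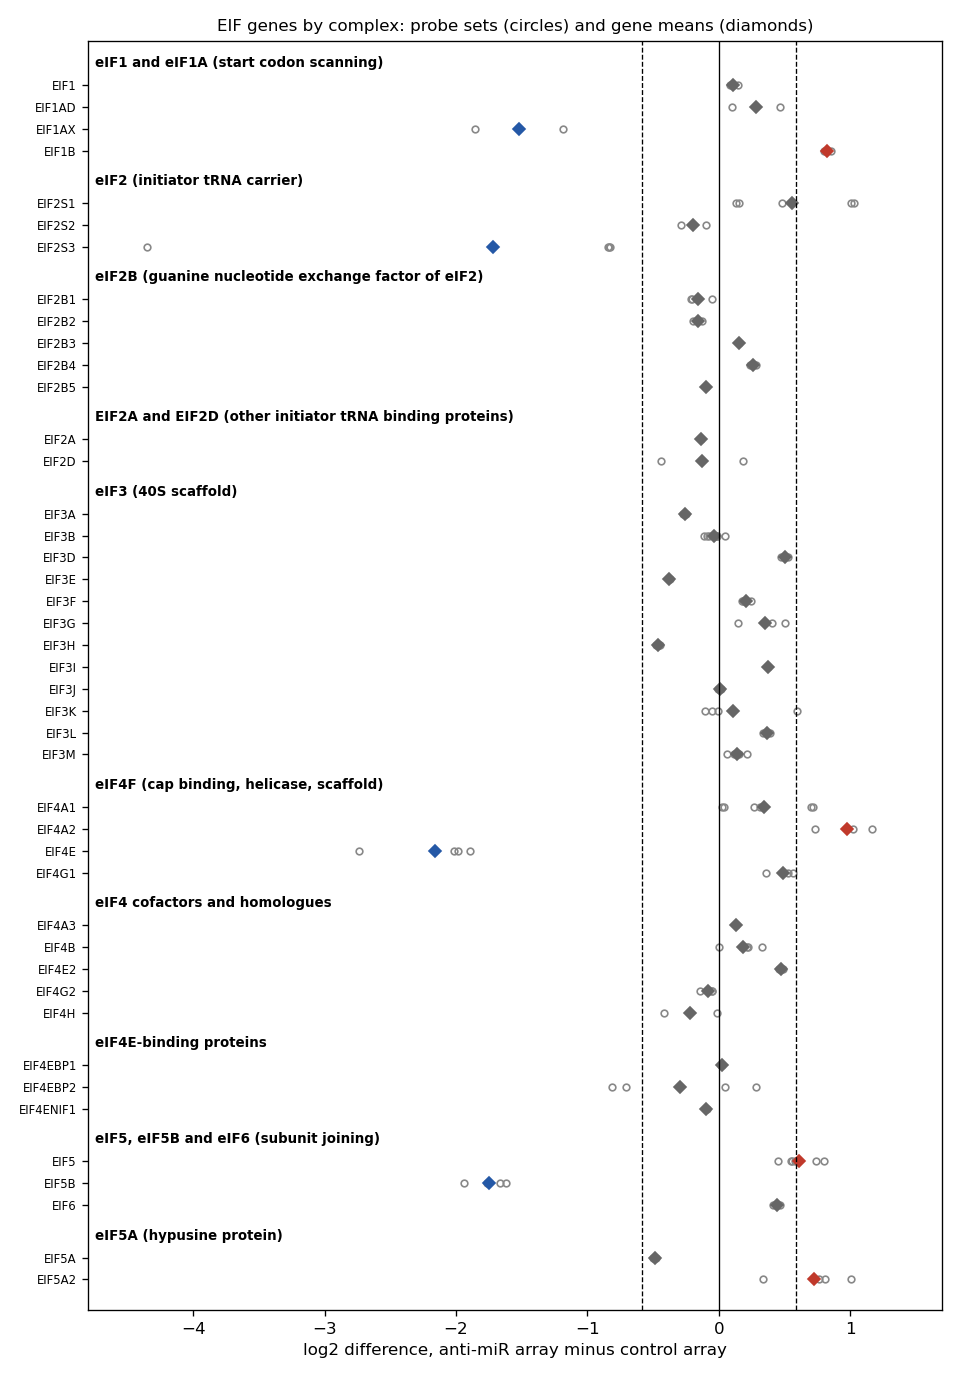
Log2 difference (anti-miR array minus control array, x axis) of the 43 measured EIF genes, grouped by complex. Open circles are kept probe sets, diamonds are gene means (red at least 1.5-fold higher, blue at least 1.5-fold lower, grey within) and dashed lines mark 1.5-fold; EIF4E, EIF5B, EIF2S3 and EIF1AX stand to the left of all other members.

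The lower genes were EIF4E, EIF5B, EIF2S3 and EIF1AX, each from a different complex or group of factors. EIF4E encodes the cap-binding protein of eIF4F. Its kept probe sets read 10.07, 10.13, 8.49 and 7.53 on the control array, and 8.18, 8.14, 6.48 and 4.78 in the same order on the anti-miR array. All 4 were lower on the anti-miR array. The gene differed by -2.16 ± 0.39 (SD over 4 probe sets), a 4.47-fold lower value that ranked 67 of 11272 genes by decrease. The other 3 of its 7 probe sets never exceeded 4.19 and differed by -0.46 to 0.36, and with them in the mean EIF4E differed by -1.24.

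EIF5B encodes the GTPase that joins the large ribosomal subunit. Its probe sets read 9.97, 9.54, 8.85 and 7.05 on the control array, and 8.35, 7.87, 7.09 and 5.11 on the anti-miR array. The 4 probe sets were shifted by nearly the same amount, from -1.94 to -1.62. The gene differed by -1.75 ± 0.14 (SD over 4 probe sets), 3.36-fold lower.

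EIF2S3 encodes the gamma subunit of eIF2, which binds GTP and the initiator tRNA. Its probe sets read 10.70, 10.77, 9.56 and 11.44 on the control array, and 9.87, 9.93, 8.73 and 7.08 on the anti-miR array. The first 3 differed by -0.85 to -0.83, while the last, whose control level was highest, differed by -4.35. The gene mean was -1.71 ± 1.76 (SD over 4 probe sets), or 3.28-fold lower, and without the outlying probe set it was -0.84, so the size of this decrease rests on 1 probe set and the call does not.

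EIF1AX encodes eIF1A, which works with eIF1 in scanning and start codon choice. Its probe sets read 9.97 and 10.38 on the control array, and 8.79 and 8.52 on the anti-miR array. Both were lower. The gene differed by -1.52 ± 0.48 (SD over 2 probe sets), 2.87-fold lower. EIF1AX and EIF2S3 are the only members on chromosome X, where 17.3% of 359 measured genes were lower.

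All 14 kept probe sets of these 4 genes were lower by at least 1.5-fold. On the control array all 14 lay above the highest of 23 nonspecific control probe sets (6.87), and on the anti-miR array 9 of 14 still did (above 7.16). The other 5, which belong to EIF4E, EIF5B and EIF2S3, lay within the range of the nonspecific controls on the anti-miR array.

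The higher genes were EIF4A2, EIF1B, EIF5A2 and EIF5. EIF4A2, a paralogue of the RNA helicase EIF4A1, read 10.69, 8.59 and 6.25 on the control array and 11.42, 9.61 and 7.41 on the anti-miR array. Every probe set was higher. The gene differed by 0.97 ± 0.22 (SD over 3 probe sets), 1.96-fold, and ranked 153 of 11272 by increase. EIF4A2 hosts small nucleolar RNAs in its introns, and the 3 kept probe sets annotated jointly to it and SNORA4 or SNORA63 differed by 0.37 to 0.56.

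EIF1B, a close paralogue of EIF1, read 7.86 and 7.90 on the control array and 8.66 and 8.76 on the anti-miR array. Both probe sets were higher by like amounts. The difference was 0.83 ± 0.04 (SD over 2 probe sets), 1.77-fold. EIF5A2, a paralogue of EIF5A, read 7.20, 5.29, 5.30 and 4.85 on the control array and 8.21, 6.10, 6.07 and 5.19 on the anti-miR array. All 4 were higher, by 0.34 to 1.01. The gene differed by 0.73 ± 0.28 (SD over 4 probe sets), 1.66-fold. Its 3 dimmer probe sets lay within the range of the nonspecific controls on both arrays, and the brightest alone differed by 1.01, which is past 2-fold.

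EIF5, the activator of the GTPase of eIF2, read 10.57, 10.45, 9.00, 8.89, 8.19, 7.04 and 4.92 on the control array and 11.02, 11.01, 9.55, 9.69, 8.93, 7.62 and 5.51 on the anti-miR array. All 7 probe sets were higher, by 0.45 to 0.80. The gene differed by 0.61 ± 0.12 (SD over 7 probe sets), 1.53-fold, just past the threshold. With the median of all genes subtracted it differed by 0.48, which ends the call. Of the 16 kept probe sets of the 4 higher genes all were higher and 11 passed 1.5-fold. Above the nonspecific range lay 11 of the 16 on the control array and 12 on the anti-miR array. Poly-A controls, bacterial transcripts added to the RNA before labelling, had a difference of 0.32 ± 0.19 (SD over 12 probe sets) in the same direction. Their part in the higher values was not tested.

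**Figure D2:**
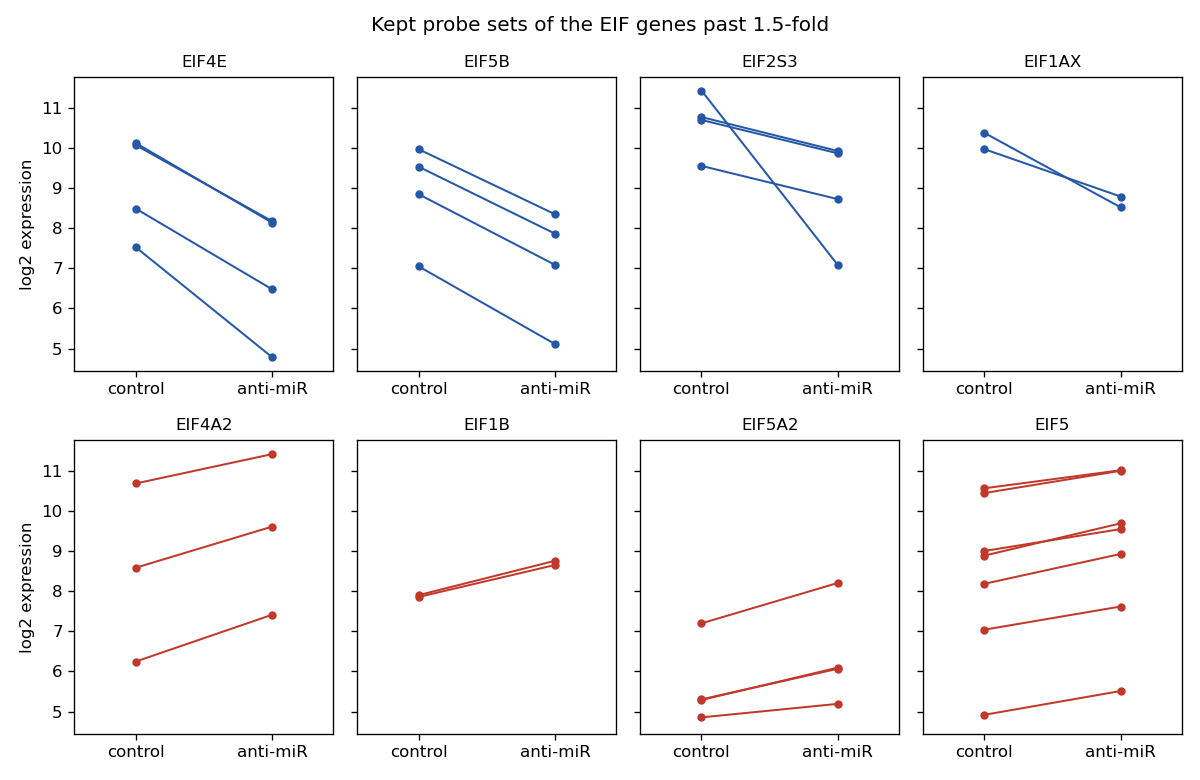
Log2 expression (y axis) of each kept probe set on the control array and the anti-miR array, joined by a line, for the 4 lower EIF genes (blue, top) and the 4 higher EIF genes (red, bottom). All lines of a gene run the same way, and 1 probe set of EIF2S3 drops from 11.44 to 7.08 while the other 3 drop by 0.83 to 0.85.

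Promoter sequences of the lower genes and of the higher paralogues are shown because these members passed the threshold. Each is the 250 bases before the RefSeq start in GRCh38.p14, 5' to 3' along the gene. Capitals mark 4 motifs, searched on both strands. These were the E-box CACGTG, which MYC binds, the GC box GGGCGG, which reads CCGCCC on the opposite strand, the CCAAT box, which reads ATTGG there, and the TATA box TATAAA, which reads TTTATA there. No motif contains another. Windows were matched for 39 of the 46 genes, and not for EIF2S2, EIF3A, EIF3E, EIF3G, EIF3H, EIF3L and EIF4EBP1. EIF5, with 2 listed starts, is not printed.
EIF4E, chr4:98929134-98929383, minus strand: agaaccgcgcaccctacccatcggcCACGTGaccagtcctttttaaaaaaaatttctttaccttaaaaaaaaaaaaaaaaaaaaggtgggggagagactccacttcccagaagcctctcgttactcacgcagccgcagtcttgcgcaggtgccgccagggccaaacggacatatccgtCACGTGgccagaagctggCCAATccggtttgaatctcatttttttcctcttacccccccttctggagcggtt
EIF5B, chr2:99337139-99337388, plus strand: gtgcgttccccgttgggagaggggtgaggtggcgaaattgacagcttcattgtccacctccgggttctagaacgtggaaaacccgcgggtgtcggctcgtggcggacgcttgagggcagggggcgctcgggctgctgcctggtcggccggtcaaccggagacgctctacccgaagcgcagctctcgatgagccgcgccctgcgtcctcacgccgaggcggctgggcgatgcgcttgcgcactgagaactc
EIF2S3, chrX:24054706-24054955, plus strand: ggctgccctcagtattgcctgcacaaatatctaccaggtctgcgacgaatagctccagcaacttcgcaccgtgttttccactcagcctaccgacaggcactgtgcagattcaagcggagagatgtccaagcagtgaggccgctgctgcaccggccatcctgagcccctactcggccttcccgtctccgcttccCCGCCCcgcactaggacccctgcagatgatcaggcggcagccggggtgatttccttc
EIF1AX, chrX:20141839-20142088, minus strand: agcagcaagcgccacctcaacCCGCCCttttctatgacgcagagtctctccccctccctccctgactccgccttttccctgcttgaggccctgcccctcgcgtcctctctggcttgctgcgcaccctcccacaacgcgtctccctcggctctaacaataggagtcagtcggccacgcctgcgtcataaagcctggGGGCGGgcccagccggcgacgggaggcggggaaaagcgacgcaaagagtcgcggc
EIF4A2, chr3:186783327-186783576, plus strand: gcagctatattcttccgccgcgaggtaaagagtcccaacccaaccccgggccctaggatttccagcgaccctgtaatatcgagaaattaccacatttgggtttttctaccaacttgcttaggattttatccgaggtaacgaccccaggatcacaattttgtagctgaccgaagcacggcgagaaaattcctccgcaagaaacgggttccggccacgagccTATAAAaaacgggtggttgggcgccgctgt
EIF1B, chr3:40309457-40309706, plus strand: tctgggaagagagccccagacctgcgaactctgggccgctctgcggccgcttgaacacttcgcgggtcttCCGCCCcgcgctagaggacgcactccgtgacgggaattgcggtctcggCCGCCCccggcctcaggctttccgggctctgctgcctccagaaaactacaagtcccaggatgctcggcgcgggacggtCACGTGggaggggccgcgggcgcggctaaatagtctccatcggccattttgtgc
EIF5A2, chr3:170908638-170908887, minus strand: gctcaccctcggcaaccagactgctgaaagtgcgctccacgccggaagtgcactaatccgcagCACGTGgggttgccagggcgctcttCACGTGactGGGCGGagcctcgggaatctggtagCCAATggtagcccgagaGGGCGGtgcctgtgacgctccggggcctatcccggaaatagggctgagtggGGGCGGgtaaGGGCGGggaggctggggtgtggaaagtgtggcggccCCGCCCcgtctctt

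None of the 4 motifs searched stood before all 4 lower genes. EIF4E held 2 E-boxes and a CCAAT box, EIF1AX held 2 GC boxes, EIF2S3 held 1, and EIF5B had no match. Among the higher genes, EIF5A2 also held 2 E-boxes and EIF1B held 1, so the E-box stood before genes of either direction. The GC box did so too, before 2 lower genes and 3 higher ones, EIF1B, EIF5 and EIF5A2. EIF4A2 was the only 1 of the 39 genes with windows that held a TATA box. Over the family, 10 of 39 genes had an E-box, in 18.9% of their 53 windows, against 6.34% of all 35116 windows of this length. The GC box was in 64.2% of member windows and 42.6% of all, the CCAAT box in 37.7% and 32.0%, and the TATA box in 1.89% and 10.7%. The 35116 windows were neither limited to genes measured here nor matched to the members in G and C bases. These shares are therefore not shown to be particular to the family. A match is a description of letters and shows no binding.

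Among the factors that act at the start codon, EIF1 differed by 0.11 ± 0.02 (SD over 4 probe sets), with levels of 11.91 on the control array and 12.02 on the anti-miR array. EIF1 thus lay near the median of all genes while its paralogue EIF1B was higher by a further 0.72, and with that median subtracted EIF1 differed by -0.02. EIF1AD, grouped here only because it is named for its eIF1A-like domain, differed by 0.28 ± 0.26 (SD over 2 probe sets). Its probe set above the nonspecific range differed by 0.47. The other, within that range on both arrays, differed by 0.10.

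The subunits of eIF2 did not move together. EIF2S1 encodes the alpha subunit, whose phosphorylation blocks initiation under stress. Its probe sets read 10.24, 9.48, 8.13, 7.78 and 7.01 on the control array and 10.38, 9.63, 9.13, 8.81 and 7.50 on the anti-miR array. All 5 were higher, 2 of them by 2-fold and 2 by 0.13 and 0.15. The mean of 0.56 ± 0.44 (SD over 5 probe sets) lay just short of the threshold. EIF2S2, the beta subunit, differed by -0.19 ± 0.14 (SD over 2 probe sets). Differences thus ran from 0.56 for alpha to -1.71 for gamma, or to -0.84 for gamma without its outlying probe set. The probe set of highest level alone gave 0.13 for EIF2S1 and -0.85 for EIF2S3.

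None of the 5 subunits of eIF2B, the exchange factor of eIF2, passed 1.5-fold. EIF2B4 had the highest difference, 0.26 ± 0.04 (SD over 2 probe sets), and EIF2B3 differed by 0.15 (1 probe set). EIF2B5, the catalytic subunit, differed by -0.10 (1 probe set), EIF2B1 by -0.16 ± 0.09 (SD over 3 probe sets) and EIF2B2 by -0.16 ± 0.05 (SD over 2 probe sets). The median of the complex was -0.10. EIF2A and EIF2D, which can deliver tRNA without eIF2, differed by -0.14 (1 probe set) and -0.13 ± 0.45 (SD over 2 probe sets). With its dim probe sets included EIF2A turned to 0.14. The probe sets of EIF2D went apart, from 8.47 to 8.03 and from 4.63 to 4.82. The dimmer one lay within the range of the nonspecific controls on both arrays, so its direction is uncertain.

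The eIF3 complex, the scaffold on the small subunit, held 12 measured members, of which 0 passed 1.5-fold in either direction. Its median was 0.12, and -0.01 with the median of all genes subtracted. The highest member was EIF3D, a subunit that can itself bind a cap, at 0.50 ± 0.04 (SD over 2 probe sets). EIF3I differed by 0.38 (1 probe set), EIF3L by 0.37 ± 0.02 and EIF3G by 0.35 ± 0.18 (SD over 3 probe sets each). EIF3F, at 0.20, and EIF3M, at 0.14, lay closer to the median gene. The lowest members were EIF3H at -0.46 ± 0.02 (SD over 3 probe sets) and EIF3E at -0.38 ± 0.01 (SD over 2 probe sets), followed by EIF3A, the large core subunit, at -0.26 ± 0.02 (SD over 2 probe sets).

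EIF3B, a core subunit, had 7 kept probe sets, which read 10.81, 8.52, 8.47, 8.41, 8.29, 8.16 and 7.82 on the control array and 10.70, 8.44, 8.46, 8.40, 8.27, 8.07 and 7.86 on the anti-miR array. They stayed within -0.11 and 0.05 of zero, with a mean of -0.04 ± 0.06 (SD over 7 probe sets). EIF3J, a loosely bound subunit, read 8.21 and 8.94 on the control array and 8.20 and 8.96 on the anti-miR array, a difference of 0.01. EIF3K read 9.55, 9.26, 8.87 and 4.12 on the control array and 9.45, 9.25, 8.82 and 4.72 on the anti-miR array, so its mean of 0.11 ± 0.33 (SD over 4 probe sets) came from the dimmest probe set, without which it was -0.05. The 5 probe sets shared by EIF3C and its near-identical copy EIF3CL cannot be assigned to either gene, and differed by 0.11 to 0.44.

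Within eIF4F the cap-binding subunit and its partners went apart. Against -2.16 for EIF4E, the scaffold EIF4G1 differed by 0.49 ± 0.11 (SD over 3 probe sets). The helicase EIF4A1 differed by 0.34 ± 0.31 (SD over 6 probe sets). Its brightest probe sets differed by 0.03 and 0.04, and 2 dimmer ones by 0.70 and 0.72. These 2 lay within the range of the nonspecific controls on the control array. The paralogue EIF4A2 stood 0.63 above it, though near-identical stretches of these helicases may share signal. The probe set of highest level alone gave 0.04 for EIF4A1 and 0.73 for EIF4A2.

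Among the other eIF4 proteins, EIF4E2, a cap-binding homologue that represses translation, differed by 0.48 ± 0.02 (SD over 3 probe sets), 2.63 above EIF4E. The helicase cofactors EIF4B and EIF4H differed by 0.19 ± 0.12 (SD over 5 probe sets) and -0.22 ± 0.28 (SD over 2 probe sets). EIF4G2, a scaffold without an eIF4E-binding site, differed by -0.08 ± 0.04 (SD over 4 probe sets). EIF4A3, a helicase of the exon junction complex, differed by 0.13 (1 probe set). Of the proteins that bind and restrain eIF4E, EIF4EBP1 differed by 0.02 ± 0.01 (SD over 3 probe sets). EIF4EBP2 read 8.42, 7.96, 6.07 and 5.70 on the control array and 8.47, 7.14, 5.36 and 5.98 on the anti-miR array. Of these 2 were lower and 2 higher, and the mean was -0.30 ± 0.55 (SD over 4 probe sets). Only the brightest lay above the range of the nonspecific controls on both arrays, and it differed by 0.05, so the direction of the gene is uncertain. The probe set shared by EIF4EBP3 and its readthrough with ANKHD1 differed by -0.63, from 5.80 to 5.18, both within the range of the nonspecific controls. EIF4ENIF1, the transporter that brings eIF4E to the nucleus, differed by -0.09 ± 0.01 (SD over 2 probe sets).

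At the last step, EIF5B was lower while EIF6, which keeps the large subunit from joining early, differed by 0.44 ± 0.04 (SD over 2 probe sets). EIF5A, the hypusine-bearing factor that helps the ribosome through hard stretches, differed by -0.49 ± 0.01 (SD over 3 probe sets), short of the threshold. With the median of all genes subtracted it differed by -0.62, which passes it. The 3 probe sets that EIF5A shares with EIF5AL1 differed by -0.61 to -0.49. EIF5A2 thus stood 1.22 above EIF5A.

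**Figure D3:**
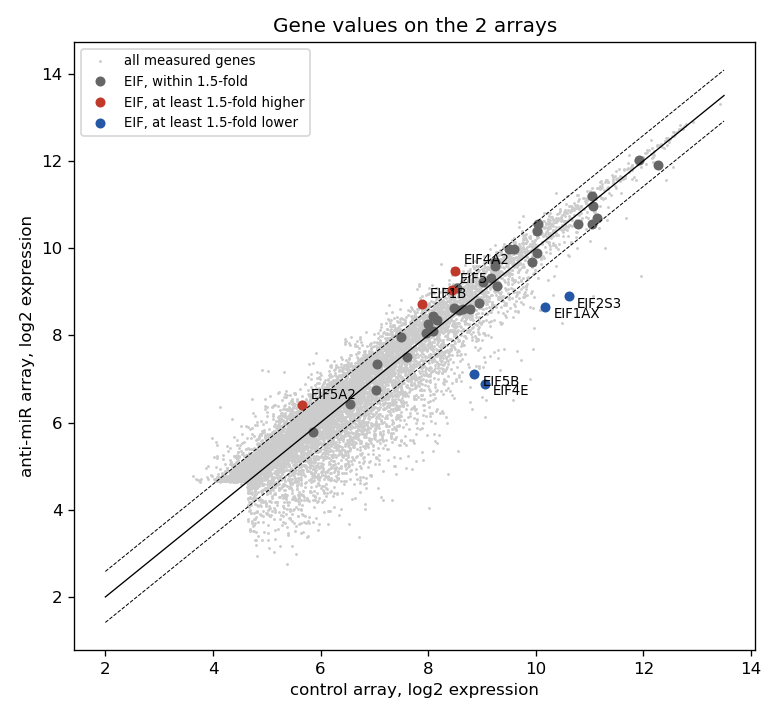
Gene values on the control array (x axis) and the anti-miR array (y axis), both log2 expression, with all 11272 measured genes in grey and EIF genes as large points (red higher, blue lower, dark grey within 1.5-fold); the solid line marks equal values and dashed lines 1.5-fold. The 4 lower EIF genes read 8.85 to 10.62 on the control array and lie below the band that holds most genes of like level.

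Of the 43 genes, 37 had values above the nonspecific range on both arrays, and EIF2D, EIF4E, EIF4EBP2, EIF4ENIF1, EIF5A2 and EIF5B did not. Among the 38 genes with at least 2 kept probe sets, 33 had all of them on the same side of zero. This held for all 8 genes past the threshold, though the mean of those probe sets is what placed them there. The like count over all genes was not made, so 33 of 38 is not shown to be particular to this family.

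Gene length, the genomic span in RefSeq, was a property the choice of members did not use. Across the 43 EIF genes, Spearman's rho between length and difference was -0.40, and across 11264 genes it was -0.49, with longer genes lower in each case. Genes of an array share its labelling and are not independent. The lower EIF genes spanned 17.3 to 63.9 kb and the higher ones 2.72 to 20.2 kb, while all lower genes had a median of 107 kb. Among all 6881 measured genes of 10 to 100 kb, 10.0% were lower by 1.5-fold and 4.0% by 2-fold. Of the 30 EIF genes in that band, 4 (13.3%) were lower by 1.5-fold. By gene means the same 4 were lower by 2-fold, EIF2S3 through its outlying probe set alone. In this band 2 EIF genes (6.67%) were higher, beside 8.52% of all genes. The median EIF gene there differed by -0.02, beside 0.14 for all genes of the band. The band holds all 4 lower members but not the higher EIF1B and EIF4A2, which are shorter. The longest members, EIF2B3 at 136 kb and EIF3H at 124 kb, differed by 0.15 and -0.46. The part of length in these values was not tested.

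**Figure D4:**
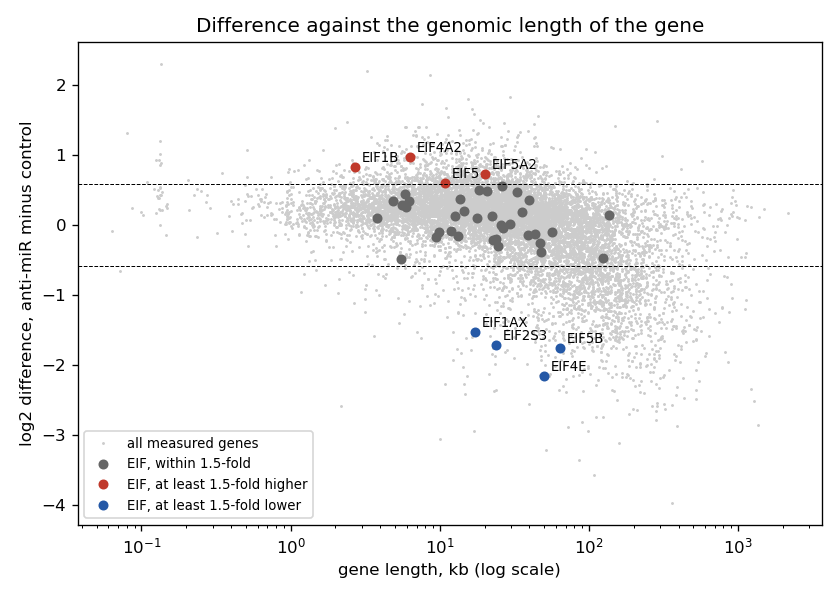
Log2 difference (y axis) against the genomic length of the gene in kb (x axis, log scale), with all measured genes in grey and EIF genes as large points (red higher, blue lower, dark grey within 1.5-fold); dashed lines mark 1.5-fold. Long genes reach further down than short ones, and the 4 lower EIF genes lie at 17.3 to 63.9 kb.

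Other genes of initiation and its control were given by a list of 31, of which 30 were measured. Of these 2 (6.67%) were higher and 5 (16.7%) lower, near the 8.23% and 14.2% of all genes, with a median of -0.03. NCBP2, the cap-binding subunit of the nuclear cap-binding complex, was 2.18-fold higher, at 1.13 ± 0.13 (SD over 5 probe sets). PPP1R15A, a stress-induced subunit that directs a phosphatase to eIF2 alpha, was 2.06-fold higher, from 5.97 to 7.01 (1 probe set), both within the range of the nonspecific controls. Of the 4 kinases of eIF2 alpha, EIF2AK4, which senses uncharged tRNA, was 4.38-fold lower, from 7.73 to 5.59 (1 probe set). EIF2AK2, activated by double-stranded RNA, was 1.90-fold lower, at -0.93 ± 0.10 (SD over 2 probe sets). EIF2AK1 and EIF2AK3 differed by 0.37 and -0.11. RPS6KB1, the S6 kinase downstream of mTOR, was 3.06-fold lower, but its 7 probe sets ranged from -3.07 to -0.36. GIGYF2, a partner of EIF4E2, was 1.83-fold lower, at -0.87 ± 0.40 (SD over 6 probe sets). The last lower gene, IMPACT, an inhibitor of EIF2AK4, differed by -0.87 (1 probe set) and was named after its value was seen, as were EIF2AK1 and EIF2AK3. On the anti-miR array the values of EIF2AK4, IMPACT and all probe sets of RPS6KB1 and GIGYF2 lay within the range of the nonspecific controls. So did 1 of the 2 probe sets of EIF2AK2, so these folds are measured against values not above that range. On the control array IMPACT, at 5.75, and the mean of GIGYF2, at 6.22, also lay below the highest nonspecific control (6.87). The same held there for RPS6KB1 probe sets at 5.78 and 5.55.

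Among 10 measured factors of cytosolic elongation and termination, 1 was higher and 1 lower, 10.0% each, beside 8.23% and 14.2% of all genes, with a median of 0.13. PELO, a rescue factor for stalled ribosomes, was 1.61-fold higher, at 0.69 ± 0.02 (SD over 2 probe sets). EEF1G, a subunit of the exchange factor for eEF1A, was 2.43-fold lower, from 11.29 to 10.00 (1 probe set). The mitochondrial initiation factors MTIF2 and MTIF3, also named with their values known, differed by -0.07 and 0.32.

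The line was checked against markers of its cell type. Of 10 squamous epithelial markers 6 were measured, and these differed by -0.54 to 0.16, short of 1.5-fold. On the anti-miR array KRT5, SFN, EPCAM, CDH1 and DSP read 8.89, 10.63, 11.14, 8.64 and 8.42. DSG3 read 5.52 there, within the range of the nonspecific controls. KRT14, a basal keratin, stayed below the median, at no more than 3.87. KRT6A, KRT17 and TP63 were not analysed here. All 5 fibroblast markers, with the collagens COL1A1, COL1A2 and COL3A1, had dim probe sets alone, at no more than 4.03. Of the leukocyte markers PTPRC and CD3E were dim. CD68 differed by 0.15, with readings up to 6.94, within the range of the nonspecific controls. Of the endothelial markers PECAM1 and VWF were measured, at no more than 5.35, and of the muscle markers DES and ACTA1, at no more than 5.67, each within 1.5-fold. Hybridization controls, added after labelling, differed by 0.09 ± 0.10 (SD over 9 probe sets).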

How the data were processed

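Biotin-labelled RNA of 2 cultures was read on Affymetrix 3' arrays, 1 per group. The deposited values are log2 expression per probe set, made by the authors with RMA, per the submitters' processing notes. Which software ran it, in what version and over how many arrays, was not given in the sources used here. RMA makes array distributions alike, so a change shared by most genes would not appear. Of 49386 probe sets, 93 were array controls, and 45253 others had 1 symbol, of which 45172 matched RefSeq of GRCh38.p14 by Entrez ID. Probe sets below the median on both arrays were left out. Gene means, differences, SDs over probe sets and counts past 1.5-fold were computed with statsmodels 0.14.6, scipy 1.17.1, pandas 2.3.3 and numpy 2.4.6 under Python 3.11.15, and the counting was tested on simulated data. The number of arrays limits the precision. Members and lists were chosen with earlier results of these data known. Every measured EIF gene is described, and those past 1.5-fold or with probe sets of opposite sign by every kept probe set. Of the other lists, genes past 1.5-fold were named, at most 6 per list, and IMPACT, EIF2AK1, EIF2AK3, MTIF2 and MTIF3 were added with their values known. Alternatives were a filter at the 75th percentile or none, the median of probe sets or the one of highest level, centring on the median, a lowess trend (fraction 0.3), a 2-fold threshold, plain _at probe sets alone and no _x_at probe sets. Adding probe sets with several symbols, and keeping those above the nonspecific controls, were chosen after seeing the data.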

Additional observations from a re-analysis of the deposited data

How the results depend on the processing

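Under each other choice of filter, probe sets or centring that measured them, EIF4E, EIF5B, EIF2S3 and EIF1AX remained at least 1.5-fold lower, and EIF4A2, EIF1B and EIF5A2 at least 1.5-fold higher. EIF4E ranged from -2.29 to -1.24 and EIF2S3 from -2.00 to -0.84. EIF5 was past the threshold in 5 of 9 alternatives, from 0.45 to 0.61. EIF2S1, short of it, passed at 0.67 without _x_at probe sets and at 1.01 with plain _at probe sets. Counts of higher genes were 3 to 5 and of lower genes 4 to 6, apart from a 2-fold threshold, with 0 higher, and plain _at probe sets, with 2 lower among 16 genes, since fewer genes were measured. Plain _at probe sets left 1 or 2 genes in most complexes and gave medians of -0.79 for eIF1 and eIF1A, 0.36 for eIF2, 0.19 for EIF2A and EIF2D, 0.74 for eIF4F, 0.29 for the eIF4E-binding proteins, -1.94 for eIF5, eIF5B and eIF6, and 0.73 for eIF5A. The eIF5A value was also 0.73 without _x_at probe sets, where EIF5A2 was the 1 gene left. No paired analysis was possible because a group is 1 array, and no array could be left out. Signal over background limits the folds of 5 of the 14 probe sets of the lower genes and of 5 of the 16 of the higher genes, 3 of them from EIF5A2, which differed by 1.01 when these were left out.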
